A study of Equus caballus with 23 samples.

Results

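The 10 circadian clock genes CLOCK, ARNTL, PER1, PER2, PER3, CRY1, CRY2, NR1D2, TEF and CIART were followed in the gluteus medius, the large hindquarter muscle, of Arabian horses. They were taken from a fixed list of symbols and matched to gene identifiers through the symbols in the authors' tables. All 10 were found among the 26991 genes counted, and all 10 passed the filter on low counts that left 11545 genes to test. RNA was sequenced from needle biopsies in 23 libraries. The T0 group held 5 libraries from untrained horses of 2.5 years. The T1 group held 8 libraries from horses of 3 years, taken when the intense gallop phase was over and flat racing had not begun. The T2 group held 10 libraries from horses of 3 years at the end of the racing season. Sex was mixed in each group, with 3 males and 2 females at T0, 4 males and 4 females at T1, and 7 males and 3 females at T2. Age and training cannot be told apart in comparisons with T0. T1 came before the racing season and T2 at its end, so time of year and racing cannot be told apart in T2 minus T1. The T2 libraries are numbered m14 to m23, after all T0 and T1 libraries. Any difference that follows this numbering cannot be told apart from time point. The labels tie no library to a named horse, so all comparisons were unpaired and the p-values measure the spread between libraries. The labels used here give no hour or date for any biopsy, and the clock phase of each library was therefore not known.

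The mammalian clock is a loop of transcription and repression that runs in nearly every cell. CLOCK and ARNTL (also called BMAL1) pair to switch on E-box genes, among them the period genes PER1, PER2 and PER3, the cryptochromes CRY1 and CRY2, CIART (also called CHRONO), the nuclear receptor NR1D2 (REV-ERB beta) and TEF. The period and cryptochrome proteins and CIART then repress CLOCK and ARNTL, while NR1D2 represses transcription of ARNTL, so in mouse tissues ARNTL RNA peaks when many of its targets are low. In skeletal muscle the clock is known to time genes of fuel use, and exercise, feeding, glucocorticoids and temperature are known to reset it.

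Levels are given as CPM, each gene's share of a library's counts scaled by TMM (edgeR's correction for library makeup), from the authors' expected counts. Total counts ran between 12185608 and 23641809 per library. Depth limited the activators: ARNTL had between 7 and 65 expected counts per library with a median of 23, and CLOCK had between 11 and 145 with a median of 78. The other 8 genes had at least 48 expected counts in every library, and PER1 reached 2502. The gene lengths needed to compare levels between genes were not used here, so each gene is compared only with itself. The tissue label was met by the markers, since slow fibre genes summed to at least 8568 CPM and fast fibre genes to at least 1688 CPM in every library. The lowest fast fibre sum came from the T1 library m3, which stood apart with the highest slow fibre sum, 137800 CPM. The next lowest fast fibre sum was 16680 CPM, in the T1 library m11. Their scores of slow minus fast fibre genes, described next, were 5.63 in m3 and 1.56 in m11. Markers of fibre type differed between the groups: the score of slow minus fast fibre genes on the log2 scale ran from −5.06 to −2.88 at T0, from −1.59 to 5.63 at T1, and from −4.35 to −1.80 at T2. The T1 scores overlapped with neither T0 nor T2. Fits with this score as a covariate therefore extrapolate in comparisons with T1. Whether a call is held or lost there cannot separate fibre type from time point. For T2 minus T1, 10 of 10 slow fibre markers were lower and 9 of 10 gene identifiers of fast fibre markers higher. For T1 minus T0, 10 of 10 slow fibre markers were higher and 3 of 10 gene identifiers of fast fibre markers lower. Over all genes, 12.6% were higher and 15.1% lower for T2 minus T1, and 3.57% higher and 3.34% lower for T1 minus T0. Of markers of other cells, 1 of 5 for pericytes and smooth muscle (RGS5) and 1 of 3 for macrophages (CSF1R) were lower at T2 than at T1. In the list of RGS5, PDGFRB (−0.31) was lower and ACTA2 (0.60), TAGLN (0.64) and MYH11 (0.96) were higher on the log2 scale, and none of these was called. None of 5 for endothelium, 5 for fibroblasts, 2 for fat cells and 1 for nerve passed. At T1, 2 of 5 fibroblast markers were lower than at T0. For T2 minus T0, 2 of 5 markers of pericytes and smooth muscle were lower, against 9.3% of all genes. They were RGS5 (−0.82 ± 0.18, adjusted p = 0.00624) and PDGFRB (−0.78 ± 0.24, adjusted p = 0.0293). There 1 of 10 slow fibre markers (ANKRD2) was higher, against 6.73% of all genes, and no other marker passed. The part of these markers in the CLOCK and TEF differences was not tested. The lists for neutrophils, lymphocytes, red cells and skin had no gene that could be matched, so blood and skin in the biopsies were not tested. In bulk tissue such as this, fewer cells of a type and less RNA per cell cannot be told apart.

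At the end of the season, 5 of the 10 clock genes differed from their level after the gallop phase, against 27.6% of all genes tested. CIART was 2.89-fold higher at T2 than at T1, and CLOCK (1.84-fold), CRY2 (1.58-fold), TEF (1.57-fold) and PER3 (1.32-fold) were lower. By direction, 1 of 10 was higher against 12.6% of all genes, and 4 of 10 were lower against 15.1%. The median log2 fold change of the 10 was −0.31, beside −0.01 over all genes tested. TEF was the only one of the 10 whose T2 and T1 libraries did not overlap, a separation seen in 2.23% of all genes. The test was edgeR's quasi-likelihood F test with Benjamini-Hochberg adjustment over all 11545 genes and a threshold of 0.05.

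Against untrained horses, 3 of the 10 genes differed at T2, where 16% of all genes did. CIART was 3.05-fold higher at T2 than at T0, and CLOCK (2.10-fold) and TEF (1.67-fold) were lower. That is 1 of 10 higher against 6.73% of all genes, and 2 of 10 lower against 9.3%. The median log2 fold change of the 10 was −0.11, against −0.03 over all genes. The T2 libraries enter both comparisons, so these are not independent of the differences from T1. None of the 10 separated the T2 and T0 libraries completely, as 2.67% of all genes did.

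After the gallop phase none of the 10 genes passed the test against untrained horses, where 6.91% of all genes did. That is 0 of 10 higher against 3.57% of all genes, and 0 of 10 lower against 3.34%. The edgeR count of 0 stood beside 3 genes at an unadjusted p below 0.05: CRY2 (adjusted p = 0.0774), CRY1 (adjusted p = 0.133) and ARNTL (adjusted p = 0.181). The share of all genes at that unadjusted threshold was not computed, so these 3 are not read as an excess. DESeq2 and limma voom each called 1 of the 10, CRY2, higher at T1. In either direction, DESeq2 called 8.92% and limma voom 12.8% of all genes they tested for T1 minus T0. The median log2 fold change of the 10 was 0.14, beside −0.02 over all genes tested, and the T1 and T0 libraries of all 10 overlapped, where 2.98% of all genes did not.

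**Figure D1:**
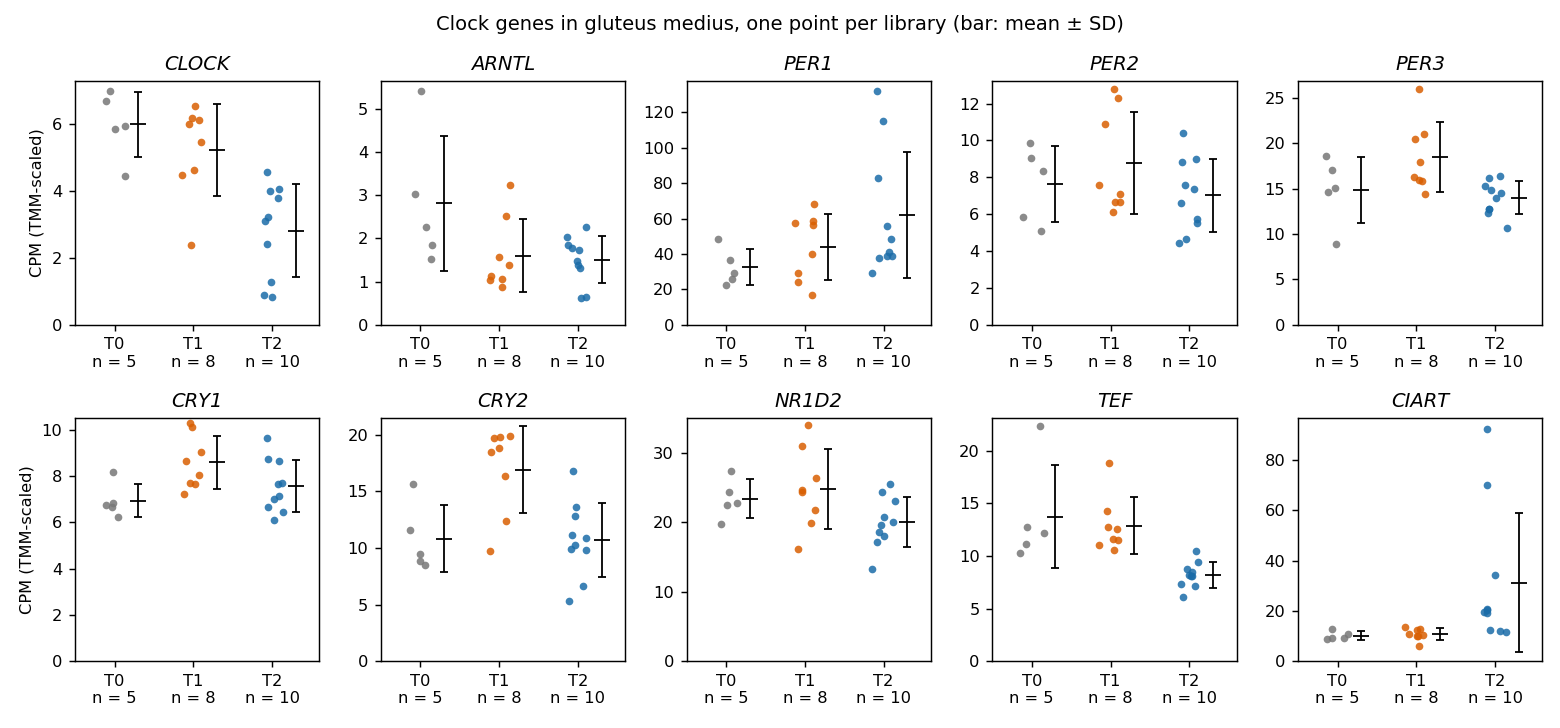
CPM (TMM-scaled) of the 10 clock genes in each of 23 libraries at T0 (n = 5), T1 (n = 8) and T2 (n = 10), 1 point per library, with the mean ± SD as a bar beside each group and each vertical axis starting at 0. TEF at T2 lies below all T1 libraries, CLOCK reaches 0.813 CPM at T2, and CIART at T2 spreads up to 92.2 CPM.

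**Figure D2:**
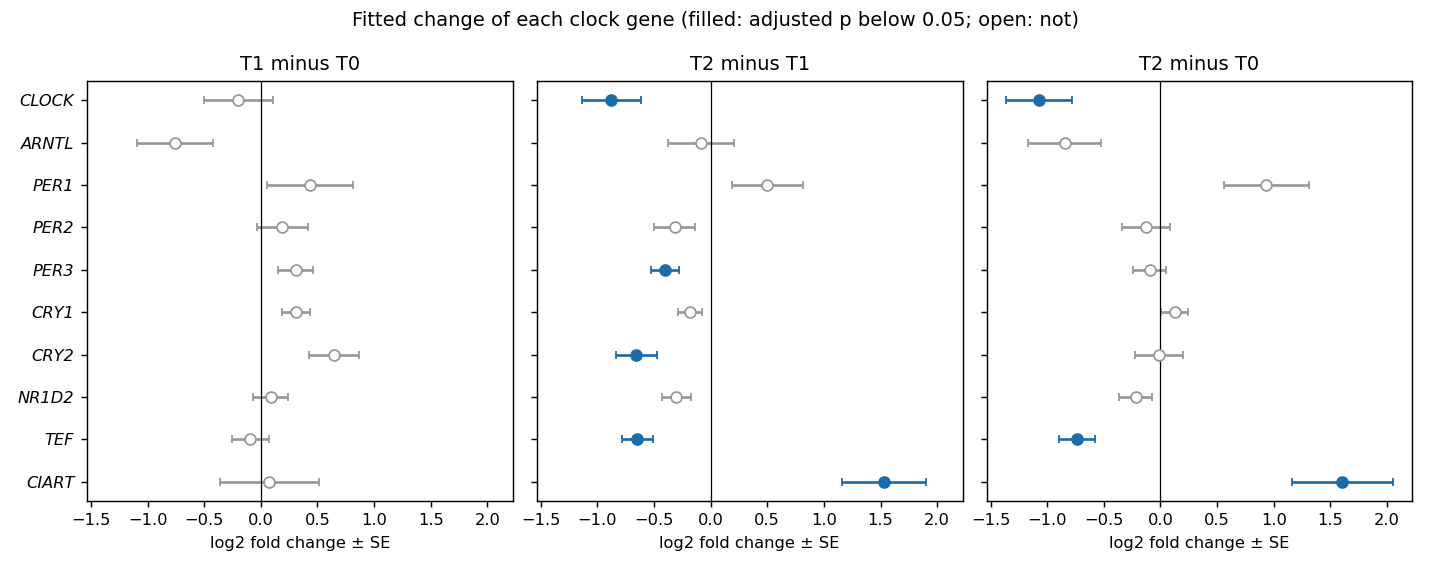
Fitted log2 fold change ± SE of each clock gene (rows) for T1 minus T0, T2 minus T1 and T2 minus T0 (panels), with filled points where the adjusted p is below 0.05. No point is filled for T1 minus T0, 5 are for T2 minus T1 (CLOCK, PER3, CRY2, TEF and CIART), and 3 are for T2 minus T0 (CLOCK, TEF and CIART).

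CLOCK, the activator that pairs with ARNTL, was lowest at the end of the season. The gene (ENSECAG00000006331) lies on chromosome 3 from 77099854 to 77215235 and spans 115382 bases, in the coordinates of the authors' tables, of a build not given in the sources used here. Levels in T0, given for each gene in the order m8, m9, m10, m12 and m13, were 5.86, 5.94, 6.68, 4.45 and 6.97 CPM. Its lowest, median and highest levels were 2.37, 5.73 and 6.52 CPM at T1, and 0.813, 3.16 and 4.55 CPM at T2. At T2, 9 of 10 libraries lay below the second lowest T1 library, and the lowest T1 library, m3, overlapped with them. The log2 fold change was −0.88 ± 0.26 for T2 minus T1 (SE, adjusted p = 0.0141) and −1.07 ± 0.29 for T2 minus T0 (adjusted p = 0.0167). For T1 minus T0 it was −0.20 ± 0.30 (adjusted p = 0.77).

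The low CLOCK libraries lay mostly among libraries in which long genes as a class were low. For each library the deviation of log2 CPM from the mean of all libraries was regressed on the log2 genomic span of 9628 annotated genes. This gene span slope averaged 0.0268 ± 0.0158 at T0 (SD, n = 5), 0.0164 ± 0.0330 at T1 (n = 8) and −0.0265 ± 0.0291 at T2 (n = 10). It was lower at T2 than at T1 (p = 0.0114 in an exact permutation test of both sides, 0.0171 when adjusted over 6 comparisons) and than at T0 (p = 0.00133, adjusted p = 0.00311). The CLOCK libraries m16 and m17 of T2, at 1.29 and 0.882 CPM, had slopes of −0.0715 and −0.054, and m3 of T1 had −0.0598. The lowest CLOCK library, m23, had a slope of −0.012, so a low CLOCK level also occurred without a steep slope. A steep slope also occurred without a low CLOCK level: m14 of T2 had −0.0536 and 4.05 CPM, the second highest level at T2. In m22 of T2 the slope was −0.0556 and CLOCK 2.40 CPM. With the slope as a covariate, chosen after the data were seen, the CLOCK difference was −0.35 for T2 minus T1 (adjusted p = 0.444) and −0.46 for T2 minus T0 (adjusted p = 0.567). In that fit the share of all genes called was 11.9% for T2 minus T1 and 0.0173% for T2 minus T0.

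**Figure D3:**
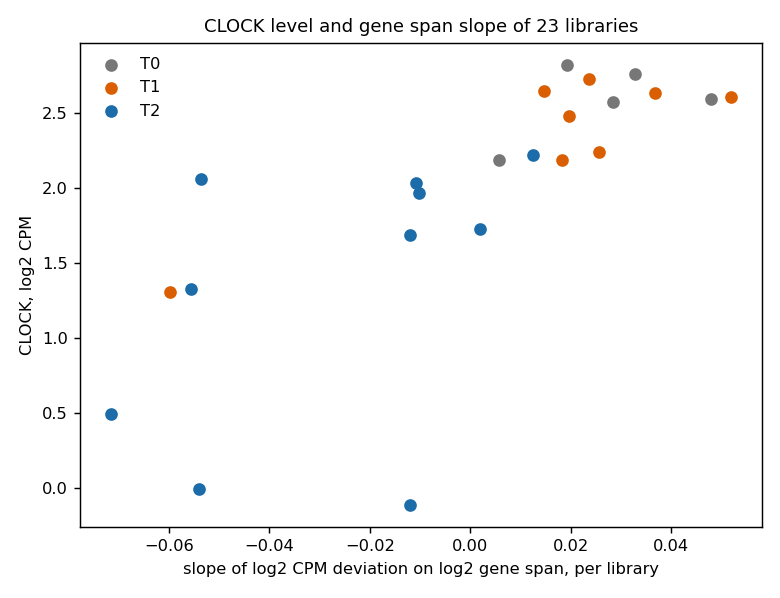
CLOCK level (log2 CPM, vertical axis) against the gene span slope of each of 23 libraries (horizontal axis, slope of log2 CPM deviation on log2 gene span), coloured by time point. All T0 libraries lie at slopes of 0.00562 or more, while T2 libraries reach −0.0715, and the lowest CLOCK library has a slope of −0.012.

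ARNTL, the partner of CLOCK and the member whose RNA defines the opposite phase of the loop, had its highest median in untrained horses but passed no test. The gene (ENSECAG00000012118) lies on chromosome 7 from 82135801 to 82169140. The T0 libraries had 1.84, 1.52, 2.26, 5.41 and 3.04 CPM. The lowest, median and highest level was 0.882, 1.26 and 3.23 CPM at T1, and 0.613, 1.60 and 2.26 CPM at T2. The level of 5.41 CPM in the T0 library m12 exceeded every other library, and all 3 groups overlapped. The log2 fold change was −0.84 ± 0.32 for T2 minus T0 (adjusted p = 0.0727), −0.76 ± 0.34 for T1 minus T0 (adjusted p = 0.181) and −0.09 ± 0.29 for T2 minus T1 (adjusted p = 0.851). Without m12 the first of these was −0.50 (adjusted p = 0.262) and the second −0.42 (adjusted p = 0.489).

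Among the period genes, which encode repressors that bind the cryptochromes, PER3 alone passed a test. PER3 (ENSECAG00000018928, chromosome 2, 42972646 to 43028321) had 15.1, 18.6, 17, 8.90 and 14.6 CPM in the T0 libraries. Its lowest, median and highest level was 14.4, 17.1 and 26.0 CPM at T1, and 10.7, 14.2 and 16.4 CPM at T2. T2 lay below T1 in the median, with overlap between 14.4 and 16.4 CPM, and the T0 libraries enclosed the whole T2 range. The log2 fold change was −0.40 ± 0.13 for T2 minus T1 (adjusted p = 0.0201), 0.31 ± 0.15 for T1 minus T0 (adjusted p = 0.243) and −0.09 ± 0.15 for T2 minus T0 (adjusted p = 0.691). The T2 minus T1 call was lost without the T1 library m7 (−0.32, adjusted p = 0.0626) or m11 (−0.36, adjusted p = 0.0505). It was also lost with the fibre score (−0.43, adjusted p = 0.079) or the gene span slope (−0.23, adjusted p = 0.324) as a covariate.

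PER1, a period gene known to respond quickly to glucocorticoids and cyclic AMP, spread most at the end of the season. PER1 (ENSECAG00000013291, chromosome 11, 51022934 to 51032002) had 22.7, 25.7, 48.2, 29.1 and 36.4 CPM in the T0 libraries. Its lowest, median and highest level was 16.6, 48.2 and 68.1 CPM at T1, and 29.2, 44.8 and 132 CPM at T2. Only the T2 libraries m21, m14 and m15, at 132, 115 and 82.7 CPM, exceeded the highest T1 library. On the log2 scale the difference was 0.94 ± 0.37 for T2 minus T0 (adjusted p = 0.0854), 0.50 ± 0.31 for T2 minus T1 (adjusted p = 0.238) and 0.43 ± 0.38 for T1 minus T0 (adjusted p = 0.563). DESeq2 called the T2 minus T0 difference (0.95, adjusted p = 0.035). Without m14 and m21, a choice made after their values were seen, the T2 minus T0 difference was 0.52 (adjusted p = 0.24) and the T2 minus T1 difference 0.09 (adjusted p = 0.827).

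PER2, the third period gene, overlapped in all groups. PER2 (ENSECAG00000013247, chromosome 6, 24225174 to 24255426) is the only member with 2 transcripts in the authors' tables. Its levels ran from 5.09 to 9.84 CPM at T0, from 6.11 to 12.8 CPM at T1 and from 4.41 to 10.4 CPM at T2. Its log2 fold change was −0.32 ± 0.19 for T2 minus T1 (adjusted p = 0.203), −0.13 ± 0.21 for T2 minus T0 (adjusted p = 0.712) and 0.19 ± 0.22 for T1 minus T0 (adjusted p = 0.686).

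CRY2, a cryptochrome that holds CLOCK and ARNTL inactive together with the period proteins, had its highest median after the gallop phase. CRY2 (ENSECAG00000000940, chromosome 12, 10481174 to 10495474) had 8.52, 9.45, 11.6, 8.90 and 15.7 CPM in the T0 libraries. Its lowest, median and highest level was 9.79, 18.7 and 19.9 CPM at T1, and 5.29, 10.6 and 16.8 CPM at T2. At T1, 5 of 8 libraries lay above every T2 and T0 library, while m1 at 9.79 CPM, m3 at 12.4 CPM and m5 at 16.4 CPM overlapped with T2 or T0. On the log2 scale the difference was −0.66 ± 0.18 for T2 minus T1 (adjusted p = 0.00872), 0.64 ± 0.22 for T1 minus T0 (adjusted p = 0.0774) and −0.01 ± 0.21 for T2 minus T0 (adjusted p = 0.977). The T1 minus T0 difference passed without T1 library m1, T0 library m13 or T2 library m17, with a lowest adjusted p of 0.0398. The T2 minus T1 call was lost with the gene span slope as a covariate (−0.44, adjusted p = 0.192) and held with the fibre score (−0.86, adjusted p = 0.0146).

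CRY1, the stronger repressor of the pair in mouse cells, passed no test. CRY1 (ENSECAG00000014833, chromosome 28, 29938489 to 30031559) ran from 6.25 to 8.15 CPM at T0, from 7.21 to 10.3 CPM at T1 and from 6.09 to 9.63 CPM at T2. It had the smallest SD for its mean at T0, with 6.93 ± 0.72 CPM (SD, n = 5), but its groups overlapped throughout. Its log2 fold change was −0.18 ± 0.10 for T2 minus T1 (adjusted p = 0.188), 0.31 ± 0.12 for T1 minus T0 (adjusted p = 0.133) and 0.13 ± 0.12 for T2 minus T0 (adjusted p = 0.484).

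CIART, a repressor that binds ARNTL independently of the cryptochromes, was the only one of the 10 that was called higher. The gene (ENSECAG00000010349) lies on chromosome 5 from 46738059 to 46741203 and spans only 3145 bases. The T0 libraries had 12.9, 9.21, 9.15, 9.01 and 10.8 CPM, and at T1 the lowest, median and highest were 6.07, 10.7 and 13.7 CPM. Its T2 levels were 92.2, 11.6, 20.9, 34.1, 20.2, 12.1, 12.3, 69.8, 19.6 and 19.2 CPM in m14 to m23. At T2, 7 of 10 libraries lay above all T1 and T0 libraries, and m15, m19 and m20 lay within their range. The libraries m14 and m21 stood far above the other 8.

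The log2 fold change of CIART was 1.53 ± 0.37 for T2 minus T1 (adjusted p = 0.00445), 1.61 ± 0.45 for T2 minus T0 (adjusted p = 0.0205) and 0.08 ± 0.44 for T1 minus T0 (adjusted p = 0.95). Without m14 and m21 it was 0.79 for T2 minus T1 (adjusted p = 0.00471) and 0.87 for T2 minus T0 (adjusted p = 0.0173), so the calls held at a smaller size. The T2 minus T1 call was lost with the fibre score (1.45, adjusted p = 0.061) or the gene span slope (1.14, adjusted p = 0.146) as a covariate. The T2 minus T0 call was lost with the slope (1.14, adjusted p = 0.411), without the T0 library m9 (1.58, adjusted p = 0.0517) and when only T2 and T0 were fitted (1.60, adjusted p = 0.0589). The slope fit called only 0.0173% of all genes for T2 minus T0, so its loss there does not single out CIART.

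NR1D2, the nuclear receptor that represses ARNTL, had its lowest median at the end of the season but passed no test. NR1D2 (ENSECAG00000007646, chromosome 16, 58942366 to 58959401) had 22.8, 24.4, 27.4, 22.5 and 19.8 CPM in the T0 libraries. Its lowest, median and highest level was 16.2, 24.6 and 34.0 CPM at T1, and 13.3, 19.8 and 25.5 CPM at T2, and all groups overlapped. Its log2 fold change was −0.30 ± 0.13 for T2 minus T1 (adjusted p = 0.0773), −0.22 ± 0.15 for T2 minus T0 (adjusted p = 0.311) and 0.09 ± 0.15 for T1 minus T0 (adjusted p = 0.808). The T2 minus T1 difference passed in limma voom (−0.33, adjusted p = 0.033), without the T1 library m3 (−0.37, adjusted p = 0.02) and without the T2 library m20 (−0.35, adjusted p = 0.0456).

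TEF, an output factor that binds D-box elements in clock-controlled genes, was the only one of the 10 with no overlap between T2 and T1. TEF (ENSECAG00000018137, chromosome 28, 37881405 to 37891791) had 10.3, 12.7, 12.2, 11.1 and 22.3 CPM in the T0 libraries. The T1 libraries m1 to m7 and m11 had 11.6, 11.5, 10.6, 14.3, 12.6, 11, 18.8 and 12.7 CPM. The T2 libraries m14 to m23 had 8.17, 7.31, 6.13, 8.10, 8.78, 10.5, 8.50, 9.43, 7.11 and 8.06 CPM. Every T2 library lay below every T1 library, and only m19 at T2 exceeded the lowest T0 library. The log2 fold change was −0.65 ± 0.14 for T2 minus T1 (adjusted p = 0.00134), −0.74 ± 0.16 for T2 minus T0 (adjusted p = 0.00534) and −0.09 ± 0.17 for T1 minus T0 (adjusted p = 0.809). The T2 minus T1 call held with the fibre score (−0.89, adjusted p = 0.00192) and with the gene span slope (−0.52, adjusted p = 0.0431). The T2 minus T0 call was lost with the slope (−0.59, adjusted p = 0.22), in a fit that called only 0.0173% of all genes.

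Sex was fitted beside time point over all 23 libraries, and none of the 10 genes passed the test between females and males, nor did any of the 11545 genes (0.0% called). In this edgeR test 1 of the 10, CRY2, had an unadjusted p below 0.05. Its log2 fold change was 0.35 ± 0.15 for female minus male, with an adjusted p of 0.784. The share of all genes at that unadjusted threshold was not computed.

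Opposing levels of activator and repressor across libraries were looked for with the mean of each time point removed. Over 23 libraries ARNTL opposed PER3, with Pearson's r = −0.66 (permutation within time points, p = 0.00128, adjusted p = 0.044 over 135 relations) and Spearman's rho = −0.63 (adjusted p = 0.0634). The sign was the same within T1 (r = −0.58, exact permutation p = 0.134, n = 8) and within T2 (r = −0.52, permutation p = 0.130, n = 10), where neither passed. Without m2 and m12, the 2 libraries farthest from the ARNTL median, r was −0.57. Without any 1 library r stayed between −0.69 and −0.56, but its adjusted p ranged from 0.044 to 0.161 and missed the threshold in 18 of 23 cases.

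Opposition was not general. ARNTL with the other 8 clock genes gave r between −0.17 (NR1D2) and 0.38 (CRY1), and none passed. Against PER2 it was −0.16, against PER1 0.15, against CRY2 0.22 and against CIART 0.12. CLOCK and ARNTL, the 2 activators, gave r = −0.08. These relations were not tested for an effect of the hour of biopsy, which is not in the labels used here. They were also not adjusted for the fibre score or the gene span slope.

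**Figure D4:**
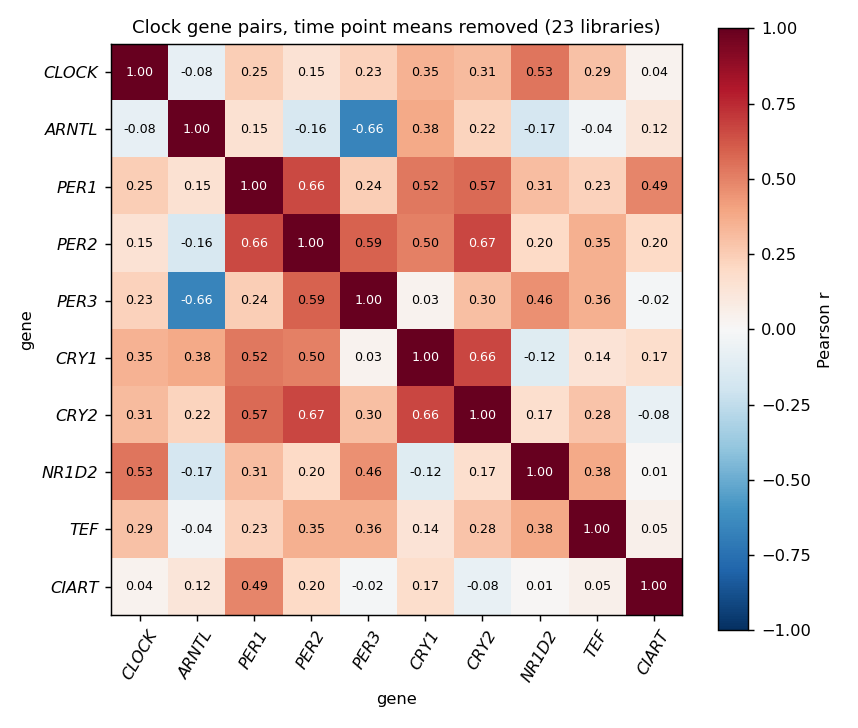
Pearson's r between the log2 CPM of each pair of clock genes over 23 libraries after the mean of each time point was removed, with rows and columns as genes and colour from −1 to 1. ARNTL and PER3 give −0.66, while the period and cryptochrome genes PER1, PER2, CRY1 and CRY2 give positive values up to 0.67.

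Several repressors varied together within time points. PER2 and CRY2 gave r = 0.67 (permutation p = 0.00085), CRY1 and CRY2 gave 0.66 (p = 0.00143) and PER1 and PER2 gave 0.66 (p = 0.00123), each with an adjusted p of 0.044. Their Spearman's rho was 0.65, 0.65 and 0.64, each with an adjusted p of 0.056. Without the 2 libraries farthest from the median of the first gene, r was 0.63 for PER2 and CRY2, 0.64 for CRY1 and CRY2 and 0.67 for PER1 and PER2. Within T2 the relation of PER2 and CRY2 reached r = 0.84 (permutation p = 0.00163, adjusted p = 0.044, n = 10), against 0.43 within T1 (exact permutation p = 0.294, n = 8). The difference between those time points was not tested. None of these correlations was adjusted for the fibre score or the gene span slope. Without any 1 library, the 3 relations kept r between 0.60 and 0.73, with adjusted p-values from 0.0216 to 0.157 that missed the threshold in 16 of 23 cases for PER2 and CRY2 and in 18 of 23 for each of the others.

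PER2 and PER3 gave r = 0.59 (permutation p = 0.0034, adjusted p = 0.0656) over all libraries and 0.91 within T1 (exact permutation p = 0.00243, adjusted p = 0.0547, n = 8). CLOCK and NR1D2 gave r = 0.53 (permutation p = 0.0109, adjusted p = 0.123). PER1 and CIART gave r = 0.65 within T2 (permutation p = 0.0377, adjusted p = 0.268, n = 10), which became −0.36 without m14 and m21 and so rested on those libraries.

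**Figure D5:**
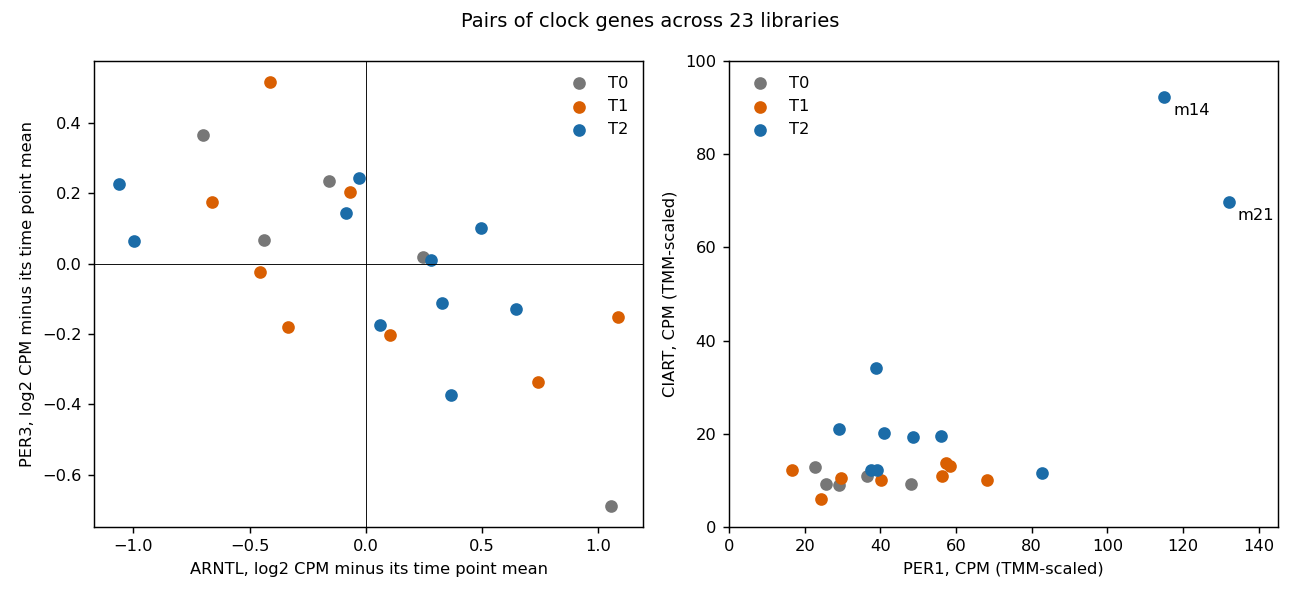
Left, PER3 against ARNTL in 23 libraries, both as log2 CPM minus the mean of the time point; right, CIART against PER1 in CPM with both axes from 0; each point is 1 library coloured by time point. ARNTL and PER3 run in opposite directions (r = −0.66), and the T2 libraries m14 and m21 stand apart at 92.2 and 69.8 CPM of CIART.

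Among 6401 named genes whose log2 CPM averaged 2 or more, PER3 had the lowest r with ARNTL over the 23 centred libraries. ALG13 (−0.65), TMEM260 (−0.63), FBXO25 (−0.61) and C6orf89 (−0.60) came next. The highest were VARS (0.72), TRIM28 (0.66), SRM (0.65), RRAGD (0.64) and SSBP3 (0.64), and none of these 5 is a clock gene of the lists used here. The genes most like NR1D2 were SBNO1 (0.79), MED23 (0.78), KDM5A (0.76), PRKD3 (0.75) and NUP155 (0.75). CAV3 (−0.79), DNPEP (−0.77), COMMD4 (−0.76), STUB1 (−0.76) and MPST (−0.75) were the most unlike it. The genes most like CIART, an anchor chosen after its values were seen, were GPR157 (0.89), GADD45A (0.77), TMEM251 (0.76), NFE2L2 (0.75) and DNAJB1 (0.73). NUP50 (−0.71), ACVR1 (−0.70), BCL9 (−0.67), ATXN7L3 (−0.65) and PPP4R3B (−0.63) were the most unlike it. DNAJB1 had 86.1 and 20.4 CPM in m14 and m21, where CIART was highest, and between 7.75 and 10.1 CPM in the other T2 libraries, and likeness to CIART without m14 and m21 was not tested. These values describe likeness across libraries that share depth and tissue makeup.

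Clock genes outside the 10 were read from a second list. BHLHE40, a repressor that binds E-boxes, was higher at T2 than at T1 (1.20 ± 0.30, adjusted p = 0.00489). It reached 113 CPM in m14 and 56.9 CPM in m21. NR1D1, the close relative of NR1D2, was higher at T2 than at T1 (0.68 ± 0.24, adjusted p = 0.0392), a call lost in 10 of 23 fits that left out 1 library. Neither BHLHE40 (0.30 ± 0.34, adjusted p = 0.571) nor NR1D1 (0.13 ± 0.27, adjusted p = 0.776) was called for T2 minus T0. For T1 minus T0, BHLHE40 (−0.90 ± 0.34, adjusted p = 0.115) and NR1D1 (−0.55 ± 0.28, adjusted p = 0.265) were lower and not called. RORA, an activator of ARNTL, was lower at T2 than at T0 (−0.96 ± 0.27, adjusted p = 0.0204). DBP, a relative of TEF with the same D-box target, passed in no comparison.

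Of 13 genes whose products modify clock proteins, 10 could be tested. For T2 minus T1, 3 were lower, against 15.1% of all genes, and 1 was higher, against 12.6%. CSNK1E, a kinase that marks period proteins for decay, was lower (−0.38 ± 0.08, adjusted p = 0.00106), as were BTRC (−0.67 ± 0.15, adjusted p = 0.00234) and PRKAA2 (−0.72 ± 0.22, adjusted p = 0.0154). CSNK1D, also on this list, was not called and had the other sign (0.21 ± 0.11, adjusted p = 0.152). BTRC is the ubiquitin ligase subunit that recognises marked period proteins, and PRKAA2 is an AMP-activated kinase subunit. FBXW11, the paralogue of BTRC, was higher (0.37 ± 0.11, adjusted p = 0.019), after a lower level at T1 than at T0 (−0.54 ± 0.14, adjusted p = 0.0176). BTRC (−0.62 ± 0.17, adjusted p = 0.0203) and PRKAA2 (−0.83 ± 0.24, adjusted p = 0.024) were also lower at T2 than at T0.

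Of 12 genes known as rhythmic outputs of the muscle clock, 9 could be tested, and for T2 minus T1 UCP3 and NAMPT were higher and PPARA and TCAP lower. These are 4 of 9, against 27.6% of all genes. UCP3, a mitochondrial carrier protein, differed by 1.86 ± 0.49 (adjusted p = 0.00826) and NAMPT, the rate-limiting enzyme of NAD salvage, by 0.60 ± 0.18 (adjusted p = 0.0148). PPARA, a receptor for fatty acids, differed by −1.69 ± 0.22 (adjusted p = 1.72e-05) and TCAP, a Z-disc protein, by −0.61 ± 0.21 (adjusted p = 0.0344). The TCAP call was lost in 7 of 23 fits that left out 1 library, and without the T1 library m3 its difference was −0.39 (adjusted p = 0.103). PPARA was also lower at T2 than at T0 (−0.90 ± 0.25, adjusted p = 0.0208). In m14 and m21 UCP3 reached 164 and 197 CPM, the libraries in which CIART and PER1 were also highest. None of the 9 passed for T1 minus T0, against 6.91% of all genes.

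The signals known to reset the clock were followed by their target genes. Of 9 glucocorticoid-responsive genes tested, DDIT4 was higher at T2 than at T1 (1.34 ± 0.32, adjusted p = 0.00373) and DUSP1 lower (−1.22 ± 0.44, adjusted p = 0.0439). The second was lost in 13 of 23 fits that left out 1 library. That is 1 of 9 higher against 12.6% of all genes, and 1 of 9 lower against 15.1%. FKBP5, TSC22D3 and ZBTB16 of this list were not called for T2 minus T1 (adjusted p = 0.0754, 0.282 and 0.145). The DUSP1 level was 123 CPM in the T1 library m6 and 36.5 CPM in the next T1 library, and without m6 the difference was −0.52 (adjusted p = 0.251). FOXO3 was lower at T2 than at T0 (−0.76 ± 0.23, adjusted p = 0.0277), which is 1 of 9 against 9.3% of all genes. Of 4 immediate early genes tested, 1 was lower at T2 than at T1, against 15.1% of all genes. This was ATF3 (−2.46 ± 0.84, adjusted p = 0.0334). That difference rested on the T1 library m6 at 260.9 CPM, and without it was −0.39 (adjusted p = 0.647). Of 7 temperature-responsive genes tested, HSPH1 (0.85 ± 0.25, adjusted p = 0.0258), HSPA8 (0.51 ± 0.15, adjusted p = 0.0255) and HSP90AA1 (0.42 ± 0.12, adjusted p = 0.0237) were higher at T2 than at T0, which is 3 of 7 against 6.73% of all genes. HSPH1 reached 48.3 CPM in m14 and 28.8 CPM in the next T2 library. None of the 7 was called for T2 minus T1, against 27.6% of all genes, or for T1 minus T0, against 6.91%. The part of these signals in the levels of the clock genes was not tested.

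Of these genes outside the 10, CSNK1E and PPARA kept their T2 minus T1 call in every alternative fit. With the fibre score as a covariate, FBXW11, UCP3, NAMPT, TCAP, DDIT4, DUSP1 and NR1D1 lost theirs, and TCAP turned to 0.14. With the gene span slope as a covariate, BTRC, PRKAA2, UCP3, NAMPT, DDIT4, DUSP1, ATF3, BHLHE40 and NR1D1 lost theirs. Without m14 and m21, UCP3 was 0.86 and BHLHE40 0.78 higher at T2 than at T1 on the log2 scale, both still called, while NR1D1, TCAP, DUSP1 and ATF3 were no longer called. Every T2 minus T0 call among them was lost with the gene span slope and without at least 1 of the T0 libraries m9, m10, m12 and m13. The slope fit called only 0.0173% of all genes for T2 minus T0, so its losses there do not single out these genes. For T1 minus T0, FBXW11 lost its call with the fibre score, a fit that called only 0.0173% of all genes, and without the T0 library m13.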

How the data were processed

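Libraries were made with the TruSeq RNA v2 kit, which does not mark strand, from 300 ng of RNA with an integrity number above 8.5 and sequenced for 50 single-end cycles in 6 technical repetitions, per the labels. No annotated gene of the authors' tables overlapped any member (0 of 10). The deposited gene table holds expected counts per gene, written as whole numbers, and the submitters' processing notes name FastQC, STAR, RSEM and DESeq2. A genome build was not given in the sources used here. Comparison tables by the authors (mean normalized count as a signal, log2 fold change, its standard error, test score and p-value) were deposited under letters that are not matched to time points, so only their symbols and coordinates were used, and 8842 identifiers had a symbol.

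edgeR filterByExpr kept genes at a least count of 10 and a least total of 15, and these held 99.93% of all counts. edgeR 4.0.16 (R 4.3.3) fitted the 23 libraries of 3 time points together with TMM scaling and a robust quasi-likelihood fit, after a check on simulated data. A prior count of 2 entered log2 CPM. Pairwise correlations of libraries ran from 0.9091 to 0.9796, and no 2 libraries held identical counts. Correlations between clock genes used 100000 resamples within time points, or all pairings within T1, and were adjusted over 135 relations. Alternatives used DESeq2 1.42.0 and limma 3.58.1, other scaling and filters, covariates and libraries left out. The members, the gene lists and the markers were chosen with earlier results of these data known. Named from each list were up to 4 called genes with the smallest p in each comparison, and the 5 highest and 5 lowest correlated genes. A planned search of promoter sequence was not run. A result on 1 listed gene is not reported here.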

Additional observations from a re-analysis of the deposited data

Results flagged for a closer look

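TEF in the T0 library m13 stood at 22.3 CPM, where the next T0 library had 12.7 CPM, a gap of 0.803 of the range of the 5 libraries. TEF in the T1 library m7 stood at 18.8 CPM, where the next T1 library had 14.3 CPM, a gap of 0.551 of the range of the 8 libraries. Both were found by Dixon's test of the highest and lowest library in 30 groups, and chance flags about 1 in 20 groups. Both lie above T2, and the T2 minus T0 difference of TEF without m13 was −0.49 (adjusted p = 0.032).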

How the results depend on the processing

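No paired analysis was possible because the library numbers are not shared between time points and no horse is named. The count of clock genes called was 5 for T2 minus T1, against 27.6% of all genes. It was 3 with the fibre score as a covariate (CLOCK, CRY2, TEF), where 22.8% of all genes were called. With the gene span slope it was 1 (TEF), where 11.9% of all genes were called. With 1 library left out it ran from 4 to 6, and the share of all genes from 23.1% to 32.8%. For T2 minus T0 the count of 3 became 0 with the gene span slope, where 0.0173% of all genes were called. It ran from 2 to 3 with 1 library left out, and the share of all genes from 8.43% to 20.6%. For T1 minus T0 the count of 0 became 1 (CRY2) in DESeq2 and in limma voom. It ran from 0 to 1 with 1 library left out, and the share of all genes from 2.97% to 7.72%. DESeq2 called 8.92% and limma voom 12.8% of all genes for T1 minus T0. The 1 passing relation of ARNTL became 0 with Spearman's rho, without m3 and m12, and without m14 and m21, and ran from 0 to 1 with 1 library left out.

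Directions turned in differences that did not pass the edgeR test as reported, apart from TCAP. CLOCK for T1 minus T0 was 0.28 with the fibre score. TEF for T1 minus T0 was 0.0618 in limma voom and 0.21 with the fibre score, and ran from −0.19 to 0.16 with 1 library left out. ARNTL for T2 minus T1 was 0.0288 with sex as a covariate and ran from −0.18 to 0.14. TCAP for T2 minus T1 was 0.14 with the fibre score. CRY2 for T2 minus T0 was 0.0026 with RLE size factors, 0.0107 with no filter, 0.0054 in DESeq2, 0.0493 with sex, 0.0417 with the fibre score and 0.24 with the gene span slope, and ran from −0.11 to 0.16. With the gene span slope, NR1D2 was 0.0355 for T2 minus T1 and 0.18 for T2 minus T0, PER2 was 0.0656 and PER3 was 0.13 for T2 minus T0. PER3 for T2 minus T0 ran from −0.22 to 0.0103 with 1 library left out. The cause was not tested. With the fibre score as a covariate, genes called over the whole table numbered 2 for T1 minus T0, against 798. With the gene span slope they numbered 1376 for T2 minus T1, against 3188, and 2 for T2 minus T0, against 1851. Depth limited ARNTL and CLOCK most.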
